A study of Mus musculus with 6 samples.

Results

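The negative feedback genes of the ERK pathway described here are the Sprouty genes Spry1, Spry2 and Spry4, the Spred genes Spred1 and Spred2, the dual-specificity phosphatase genes Dusp4, Dusp5 and Dusp6, and the ERK-induced transcription factor gene Etv5. They were taken by name: a gene was measured by a probe set that carried exactly 1 gene symbol, and where a gene had several, by the one of highest mean on the 6 arrays. All 9 genes were found among 19938 named genes, and all 9 passed the filter on dim genes (a mean log2 value of 7.35). RNA came from pre-B cells of C57BL/6 mice transformed by BCR-ABL1, the tyrosine kinase fusion that drives Ph+ ALL (acute lymphoblastic leukaemia with the Philadelphia chromosome), all of genotype Inpp5d fl/fl. SHIP1, the product of Inpp5d, is a lipid phosphatase that lowers the PI3K product PIP3. The 3 arrays labelled CRE held cells transduced with PMIP-CRE-ERT2, a Cre recombinase that tamoxifen switches on, and the 3 arrays labelled ERT held cells transduced with PMIP-ERT2, without Cre. Both groups were given 4OH-Tamoxifen at 0.5 µM for 2 days, and the cells profiled were resistant to puromycin. No group carried Cre without floxed alleles, so Cre activity and deletion of Inpp5d cannot be told apart. The labels do not name separate cultures or animals behind the 3 arrays of a group, so the p-values cover no more than the spread from array to array, which may be technical.

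ERK is the last kinase of the RAS, RAF and MEK cascade, and it induces the genes that later restrain it. Sprouty proteins act near the receptor and at RAF, Spred proteins bring the RAS GTPase-activating protein neurofibromin to the membrane, and dual-specificity phosphatases remove the activating phosphates from ERK itself. ERK feedback is known to matter in BCR-ABL1-transformed pre-B cells, which depend on it to tolerate oncogene signalling, and Etv5 is a transcription factor of the ETS family widely read as a sign of ERK output.

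Promoter windows of Spry1, Spry2, Spred1 and Dusp5 are shown as the DNA next to the start sites of some of the genes compared below. The means of Spry1, Spry2 and Spred1 lay lower in the arrays labelled CRE and that of Dusp5 slightly above the controls, but of these only Spred1 was called. Windows of Spred2, Dusp6 and Etv5 were searched and are not printed. No contrast in sequence between the genes was tested. Of the 9 genes, 7 had a RefSeq window (GRCm38.p6, 250 bases before to 50 after the start site), 8 windows in all, and Spry4 and Dusp4 had none in the table. The windows lie at chr3:37639697-37639996 on the + strand (Spry1), chr14:105896770-105897069 on the - strand (Spry2), chr2:117120821-117121120 on the + strand (Spred1) and chr19:53528895-53529194 on the + strand (Dusp5), each printed on the strand of its gene, with motif letters in capitals.
Spry1: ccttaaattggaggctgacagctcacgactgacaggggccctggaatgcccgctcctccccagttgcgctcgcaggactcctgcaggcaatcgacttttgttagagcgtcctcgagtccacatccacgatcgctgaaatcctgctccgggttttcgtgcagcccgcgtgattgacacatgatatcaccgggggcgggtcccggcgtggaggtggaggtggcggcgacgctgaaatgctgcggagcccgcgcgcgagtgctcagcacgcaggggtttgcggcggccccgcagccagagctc
Spry2: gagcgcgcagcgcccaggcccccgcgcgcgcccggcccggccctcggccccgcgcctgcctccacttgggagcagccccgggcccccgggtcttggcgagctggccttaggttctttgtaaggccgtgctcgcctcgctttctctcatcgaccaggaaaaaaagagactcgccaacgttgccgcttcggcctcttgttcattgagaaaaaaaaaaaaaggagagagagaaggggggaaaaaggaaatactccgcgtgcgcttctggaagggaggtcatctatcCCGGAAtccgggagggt
Spred1: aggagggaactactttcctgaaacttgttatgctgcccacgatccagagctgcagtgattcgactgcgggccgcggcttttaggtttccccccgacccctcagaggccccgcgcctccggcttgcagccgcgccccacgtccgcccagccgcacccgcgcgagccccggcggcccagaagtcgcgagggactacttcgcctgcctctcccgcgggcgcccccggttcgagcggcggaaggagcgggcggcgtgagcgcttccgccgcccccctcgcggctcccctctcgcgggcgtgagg
Dusp5: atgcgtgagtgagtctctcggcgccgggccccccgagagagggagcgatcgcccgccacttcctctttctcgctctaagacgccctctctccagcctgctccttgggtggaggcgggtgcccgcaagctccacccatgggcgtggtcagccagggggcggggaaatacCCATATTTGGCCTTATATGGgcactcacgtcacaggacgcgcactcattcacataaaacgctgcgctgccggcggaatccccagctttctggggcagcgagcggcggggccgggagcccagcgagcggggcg
Both strands were searched for the ETS letters CCGGAAGT and their shorter core CCGGAA, the cAMP response element TGACGTCA, the AP-1 letters TGANTCA, and the CArG box that serum response factor binds; the shorter ETS core lies within the longer one. The capitals in Dusp5 mark 2 CArG boxes that abut each other, CCATATTTGG from 82 to 73 and CCTTATATGG from 72 to 63 bases before the start site. A CArG box was found in 1.63% of 32851 windows of the same length. Spry2 held the shorter ETS core once, 33 bases past the start site, as did 14.9% of all windows. No searched letters were found in the windows of Spry1, Spred1, Spred2, Dusp6 or Etv5. The CArG box was added to the search after the sequences had been seen, and a match is no evidence of binding.

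Means of the 9 genes lay on both sides of the controls. Each of the 3 Sprouty genes, Spred1 and Etv5 had a lower mean in the arrays labelled CRE, by 0.18 to 0.30 on the log2 scale, while Spred2 and the 3 phosphatase genes had means above those of the controls by 0.027 to 0.16. With limma (adjusted over 14953 genes), Spry4 and Spred1 fell, 0 genes rose and 7 did not pass. An unadjusted p under 0.05 was found for 5 of the 9. The share of all genes at that threshold was not counted, so the 5 do not set the feedback genes apart. Small unadjusted p-values were common over all genes: Dusp4 had an unadjusted p of 0.028 and an adjusted p of 0.111 (limma). Gab2, a gene of the RAS-ERK cascade close to the threshold, had 0.0485 and 0.148 (limma). Adjusted values so near the unadjusted ones arise only where many of the genes tested have p-values as small. Of all genes tested, 7.62% passed the adjusted threshold, 3.5% as higher and 4.13% as lower. A count of 2 of 9 is too few to set the feedback genes apart from that share. The median log2 fold change was -0.18 over the 9 genes and 0.026 over all genes tested, and the difference between the families was not tested. For 4 of the 9 genes the 3 values labelled CRE lay wholly below the 3 controls, and for 0 wholly above; among all genes tested the groups did not overlap in 38.5%, with 17.7% below and 20.7% above.

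**Figure D1:**
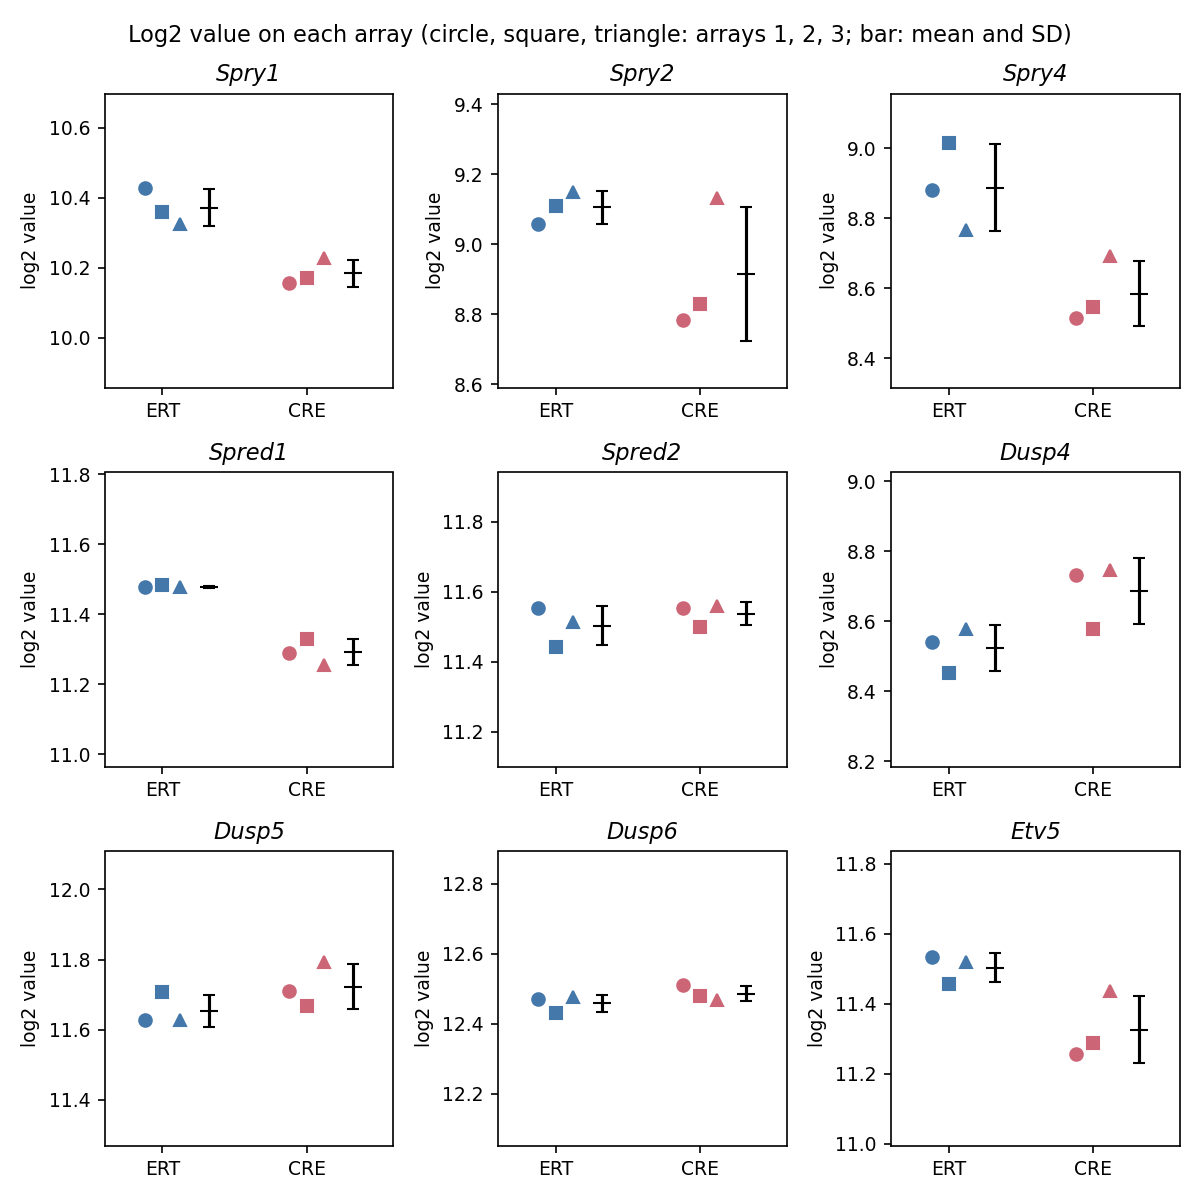
Log2 value of each gene on each array, 1 panel a gene with the same height of scale, for the arrays labelled ERT (blue) and CRE (red); circles, squares and triangles are arrays 1, 2 and 3, and black bars are the mean and SD of 3 arrays. Spry1, Spry4, Spred1 and Etv5 show all 3 red points below all 3 blue points, and in Spry2 the array labelled CRE 3 (9.13) lies among the controls.

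**Figure D2:**
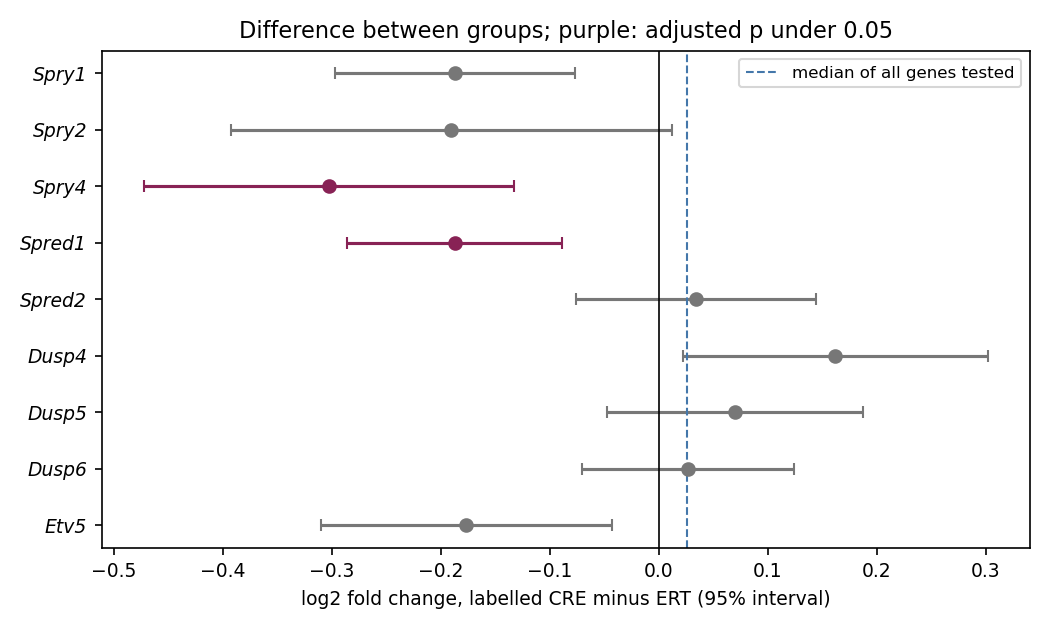
Log2 fold change of each gene, labelled CRE minus ERT, with its 95% interval from limma; the dashed line is the median of all genes tested (0.026). The intervals of Spry1, Spry4, Spred1 and Etv5 lie below 0, those of Spry2, Spred2, Dusp5 and Dusp6 span 0, and that of Dusp4 lies above 0.

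Spry4, a Sprouty gene that ERK induces, showed the largest difference of the 9. ERT arrays 1, 2 and 3 had log2 values of 8.88, 9.02 and 8.77 for it, and arrays 1, 2 and 3 labelled CRE had 8.52, 8.55 and 8.69. All values labelled CRE lay below the controls, with the smallest gap between the array labelled CRE 3 and ERT array 3. The mean fell by 0.30 ± 0.074 (SE) on the log2 scale, 1.23-fold lower, with a 95% interval from -0.47 to -0.13 (limma adjusted p = 0.0471). The call ended with 5 of the 6 arrays left out in turn, all but the array labelled CRE 3, with adjusted p from 0.0253 to 0.159 over the 6 fits.

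Spry1, which encodes the family member known for restraining receptor tyrosine kinase signals in the kidney, had log2 values of 10.43, 10.36 and 10.33 in the controls and 10.16, 10.17 and 10.23 in the arrays labelled CRE. The groups did not overlap, and the array labelled CRE 3 was again the nearest to the controls. The difference of -0.19 ± 0.048 (SE), with an interval from -0.30 to -0.077, missed the threshold (limma adjusted p = 0.0531). It passed without the array labelled CRE 3 (-0.21, adjusted p = 0.0357).

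Spry2, whose product binds the ubiquitin ligase CBL, had log2 values of 9.06, 9.11 and 9.15 in the controls. The arrays labelled CRE read 8.78, 8.83 and 9.13. Arrays 1 and 2 labelled CRE were therefore low while array 3 was inside the control range, and the SD labelled CRE (0.19) was wider than that of the controls (0.047). The difference of -0.19 ± 0.088 (SE) did not pass (interval from -0.39 to 0.012, limma adjusted p = 0.166). Without the array labelled CRE 3 it was -0.30 and passed (adjusted p = 0.0190).

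Spred1, mutated in Legius syndrome and a partner of neurofibromin, gave the tightest separation. Its controls read 11.48, 11.48 and 11.48, and the arrays labelled CRE read 11.29, 11.33 and 11.26. The control SD was 0.0028 and the gap between the groups exceeded the spread within either. Spred1 fell by 0.19 ± 0.043 (SE), 1.14-fold lower, with an interval from -0.29 to -0.088 (limma adjusted p = 0.0408). As with Spry4, leaving out any array but the one labelled CRE 3 ended the call (adjusted p from 0.0455 to 0.159 over the 6 fits).

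Spred2, the close relative of Spred1, had 2 probe sets that did not read alike. On the brighter probe set, used for all counts here, the controls read 11.55, 11.44 and 11.51 and the arrays labelled CRE 11.55, 11.50 and 11.56, and the groups overlapped (0.034 ± 0.048, SE; limma adjusted p = 0.625). On the other probe set the controls read 10.20, 10.23 and 10.31 and the arrays labelled CRE 10.10, 9.88 and 10.17, and all 3 values labelled CRE lay below the controls. That probe set had a log2 fold change of -0.20 ± 0.077 (SE) when all probe sets with 1 symbol were fitted together, and it did not pass (limma adjusted p = 0.152). Averaging the 2 probe sets turned the difference of Spred2 to -0.083, so no direction is given for this gene.

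Dusp6, which encodes the cytoplasmic phosphatase specific for ERK, showed no difference beyond the spread of its arrays. Its log2 values were 12.47, 12.43 and 12.48 in the controls and 12.51, 12.48 and 12.47 in the arrays labelled CRE, and the groups overlapped. The difference was 0.027 ± 0.042 (SE), with an interval from -0.070 to 0.12 (limma adjusted p = 0.666). A fall of more than 0.070 or a rise of more than 0.12 lies outside that interval, which takes no account of the choice of normalization. After median centring the difference was -0.076 (limma adjusted p = 0.451), just beyond its lower end.

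Dusp5, which encodes a nuclear phosphatase specific for ERK, read 11.63, 11.71 and 11.63 in the controls. It read 11.71, 11.67 and 11.79 in the arrays labelled CRE, overlapping with ERT array 2. The difference was 0.070 ± 0.051 (SE), with an interval from -0.048 to 0.19 (limma adjusted p = 0.351). Its promoter window is the one printed above with 2 CArG boxes. The signs of Spred2, Dusp5 and Dusp6 turned when arrays were centred on their medians, to -0.068, -0.033 and -0.076.

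Dusp4, which encodes a nuclear phosphatase that also acts on JNK and p38, had the largest upward difference of the 9 as reported, but not after quantile normalization (0.077, against 0.086 for Dusp5) or cyclic loess (0.098 against 0.0998). The controls read 8.54, 8.45 and 8.58, and the arrays labelled CRE read 8.73, 8.58 and 8.75. Arrays 1 and 3 labelled CRE lay above all controls, and array 2 was level with ERT array 3. The difference of 0.16 ± 0.061 (SE), with an interval from 0.022 to 0.30, did not pass (limma adjusted p = 0.111), and after median centring it was 0.060 (adjusted p = 0.602).

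Etv5, the ETS factor gene, was represented by 2 probe sets that moved alike. On the brighter probe set the controls read 11.53, 11.46 and 11.52 and the arrays labelled CRE 11.26, 11.29 and 11.44. On the other probe set the controls read 10.84, 10.87 and 10.84 and the arrays labelled CRE 10.49, 10.66 and 10.69. The groups did not overlap on either probe set, and array 3 labelled CRE was the nearest to the controls on both. The brighter probe set gave -0.18 ± 0.058 (SE) with an interval from -0.31 to -0.043 (limma adjusted p = 0.0854), and the other gave -0.23 ± 0.063 (adjusted p = 0.0897 with all probe sets fitted together), so neither passed. Without the array labelled CRE 3, Etv5 was called lower (-0.23, adjusted p = 0.0274).

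The array labelled CRE 3 thus bears on most of these results. Across all probe sets that array correlated with ERT array 3 at r = 0.997 and with the arrays labelled CRE 1 and 2 at 0.994 and 0.995. In the fit without it, all 3 Sprouty genes, Spred1 and Etv5 were called lower, 5 of 9, while 20.3% of all genes tested were called, with 9% of all genes called as lower. The sign of each of the 3 Sprouty genes, Spred1, Etv5 and Dusp4 was the same in all 15 other settings tried, 6 of 9 genes. The median log2 value of the arrays ranged from 8.19 to 8.23 in the controls and from 8.24 to 8.37 in the arrays labelled CRE.

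**Figure D3:**
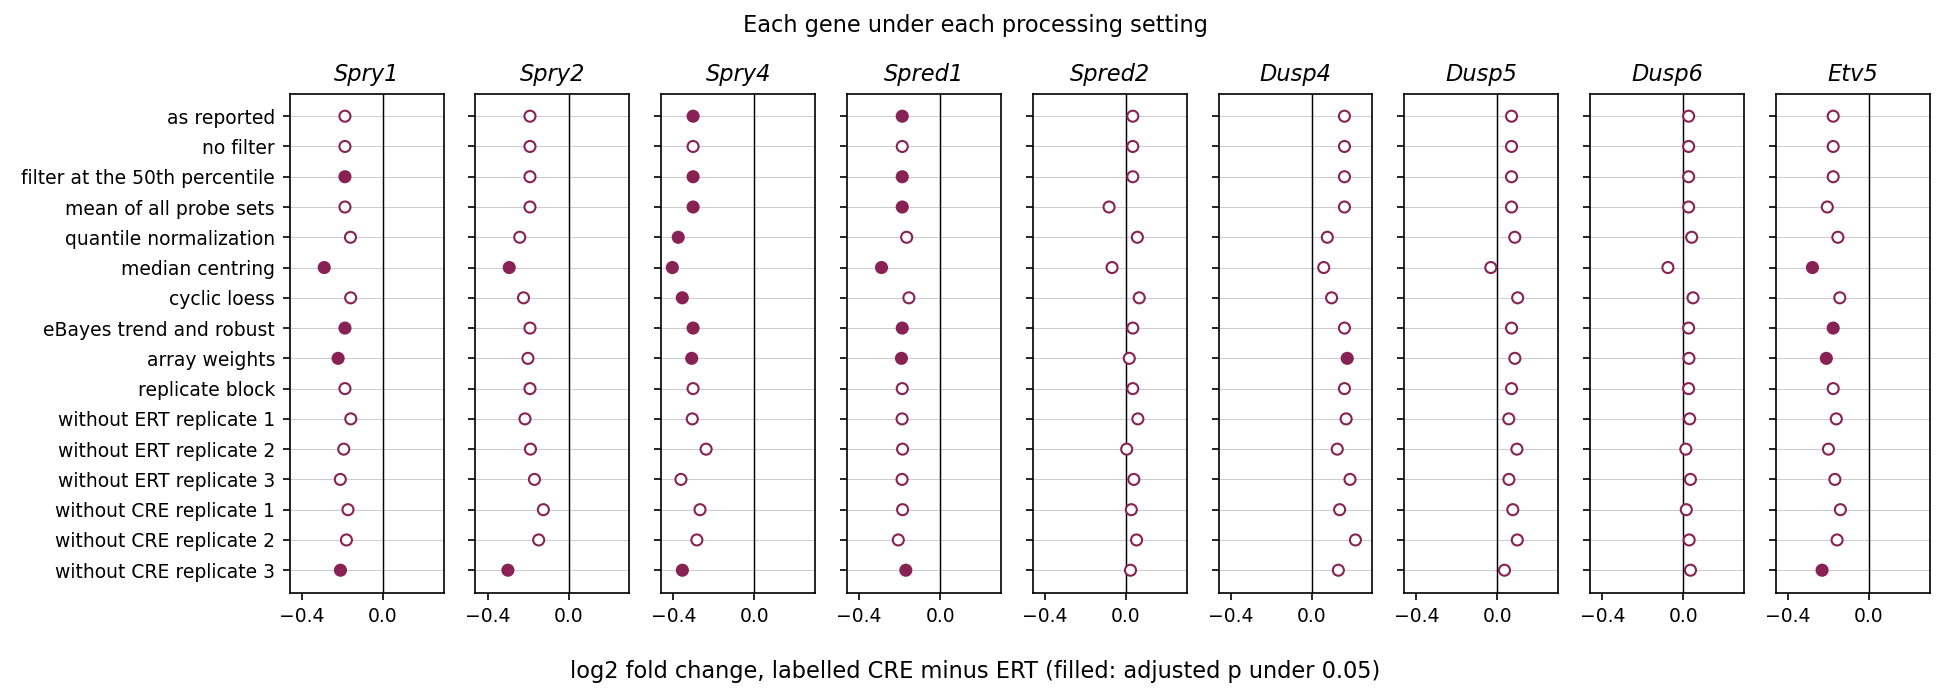
Log2 fold change of each gene, labelled CRE minus ERT (horizontal axis), in the reported fit and in 15 other settings (rows); filled points have an adjusted p under 0.05. Spry1, Spry2, Spry4, Spred1 and Etv5 lie left of 0 in every row, with calls that come and go. Spred2, Dusp5 and Dusp6 cross 0 with median centring, and Spred2 also with the mean of all probe sets.

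The targeted gene did not check the labels. Inpp5d read 13.20, 13.21 and 13.17 in the controls and 13.37, 13.34 and 13.35 in the arrays labelled CRE, higher by 0.16 ± 0.041 (SE; limma adjusted p = 0.0545). Its difference was above 0 in all 15 other settings and passed in 5 of them (adjusted p from 0.00364 to 0.0485), and after median centring it was 0.056 (adjusted p = 0.595). These values show no fall of Inpp5d RNA in the arrays labelled CRE. The sources used here do not place its probe set relative to the floxed exons, so the values cannot tell whether those exons were deleted. Each direction is therefore that of the labels. All 13 pre-B markers measured were brighter than the median gene, led by the surrogate light chain gene Igll1; 1 was higher in the arrays labelled CRE (Dntt, 0.33), 1 lower (Rag2, -0.50) and 11 did not pass. Of 13 myeloid markers, 6 passed the filter and 3 of these were higher in the arrays labelled CRE (Lyz2, Cebpa and Cebpe), beside 3.5% of all genes called higher, and the summed log2 value of the list was 96.8 to 97.8 in the controls and 99.3 to 100.2 in the arrays labelled CRE. Markers of T and NK cells (5 of 12 tested), erythroid and megakaryocytic cells (4 of 10) and stroma (9 of 11) had 0 called by limma. At an unadjusted p under 0.05 there were 3, 1 and 5 genes. The share of all genes at that threshold was not counted, but such p-values were common over all genes, so these counts do not set the marker lists apart. The summed log2 values of these lists were 80.7 to 81.4, 45.8 to 45.9 and 88.7 to 89.4 in the controls. In the arrays labelled CRE they were 81.7 to 83.3, 45.9 to 46.7 and 90.0 to 91.5. The pre-B list summed to 160.98 to 161.55 in the controls and 160.42 to 161.34 in the arrays labelled CRE. No sum was adjusted for the higher median log2 values of the arrays labelled CRE. The part of other cell types in the values of the feedback genes was not tested, and in bulk RNA fewer cells of a type and less RNA per cell cannot be told apart.

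Relatives of the feedback genes were read in the same fit. Of the other Sprouty, Spred and SEF genes, Spry3 was below the filter on dim genes, and Spred3 (0.080) and Il17rd (0.13), which encodes the membrane inhibitor SEF, did not pass. Of 11 other dual-specificity phosphatase genes, 1 was lower, 0 higher and 10 did not pass, a share of 9.09% that is near the 7.62% of all genes, with a median log2 fold change of 0.0078. The gene called was Dusp3, which encodes the small phosphatase VHR. Dusp3 read 8.94, 8.97 and 8.89 in the controls and 8.63, 8.59 and 8.72 in the arrays labelled CRE, without overlap, and fell by 0.29 ± 0.050 (SE; limma adjusted p = 0.0203). Its call ended without ERT array 1, ERT array 2 or the array labelled CRE 1 (adjusted p from 0.0151 to 0.105 with each array left out in turn). Dusp1, the immediate early phosphatase gene induced by stress and growth factors, read 10.27, 10.23 and 10.13 in the controls and 10.23, 10.14 and 10.26 in the arrays labelled CRE, with overlap and no call.

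Of 19 tested genes of the cascade, from receptor adaptors to ERK-activated kinases, 1 was lower, 0 higher and 18 did not pass, a share of 5.26% near the 7.62% of all genes. The RAS gene Nras read 11.91, 11.90 and 11.81 in the controls and 11.62, 11.64 and 11.69 in the arrays labelled CRE. It fell by 0.22 ± 0.048 (SE; limma adjusted p = 0.0350), and the call ended with 5 of 6 arrays left out, all but the array labelled CRE 3 (adjusted p from 0.0267 to 0.157). The MEK gene Map2k1 had -0.17 ± 0.046 (adjusted p = 0.0550), which did not pass.

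Among 16 tested RAS GTPase-activating proteins and other brakes on receptor signalling, 1 was lower, 0 higher and 15 did not pass, a share of 6.25% near the 7.62% of all genes. In 6 other settings 2 to 4 further genes of this list were called higher beside 1 lower, so the list has no settled direction. Higher calls over all genes also varied in those settings, from 2.44% (quantile normalization) to 15.2% (array weights). The gene called was Errfi1, which encodes MIG6, a feedback inhibitor of the EGF receptor family. Errfi1 read 9.12, 9.23 and 9.08 in the controls and 8.74, 8.69 and 8.76 in the arrays labelled CRE, a gap wider than the spread of either group. It fell by 0.41 ± 0.053 (SE), 1.33-fold lower (limma adjusted p = 0.00650), and passed in all 15 other settings. Nf1, which encodes the neurofibromin that Spred proteins recruit, differed by 0.26 ± 0.079 (adjusted p = 0.0719) and did not pass; it was chosen for its tie to Spred1 after its value had been seen.

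ERK-induced transcripts were called in both directions. Limma called 4 of 26 as higher and 3 as lower, leaving 19 that did not pass, with a median log2 fold change of 0.072. The share called was 26.9%, beside 7.62% of all genes. The list was chosen with earlier results of these data known, so the larger share is a description and no test of the list. The immediate early gene Egr1 read 9.94, 9.88 and 9.88 in the controls and 10.24, 10.30 and 10.31 in the arrays labelled CRE, and rose by 0.38 ± 0.045 (SE; limma adjusted p = 0.00532). The AP-1 gene Jun rose by 0.38 ± 0.049 and Fosb by 0.66 ± 0.045. Egr1, Jun and Fosb were therefore higher in the same arrays in which Spry4 and Spred1 were lower.

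The 2 largest differences in that list were falls. The cyclin D1 gene Ccnd1, which drives entry into S phase, read 10.86, 10.82 and 10.81 in the controls and 9.99, 10.01 and 9.94 in the arrays labelled CRE. Ccnd1 fell by 0.85 ± 0.044 (SE), 1.80-fold lower (limma adjusted p = 1.09e-04), and the circadian repressor gene Bhlhe40 fell by 0.78 ± 0.077. Ccnd1, Fosb, Egr1, Jun and Bhlhe40 passed in every setting in which they were tested, 14 settings for Bhlhe40 and 15 for the others. Myc (-0.22, adjusted p = 0.0259) and Plaur (0.19, adjusted p = 0.0413), which encodes the urokinase receptor, passed in 8 of 15 and 3 of 14 settings, and of the fits with an array left out both passed only in the one without the array labelled CRE 3 (adjusted p up to 0.129 for Myc and 0.172 for Plaur over the 6 fits). Fos had 0.15 ± 0.062 (adjusted p = 0.130) and did not pass.

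ETS factors, the group to which Etv5 belongs, had 0 of 18 called by limma at an adjusted p under 0.05 in either direction, with a median log2 fold change of 0.025. At an unadjusted p under 0.05, 3 of the 18 passed, Gabpa (-0.17), Ets1 (0.12) and Erg (0.11). The share of all genes at that unadjusted threshold was not counted, so the 3 do not set the ETS factors apart. Etv4, which forms the PEA3 subfamily with Etv5 and Etv1, read 8.57, 8.65 and 8.56 in the controls and 8.32, 8.57 and 8.49 in the arrays labelled CRE, with overlap (-0.14 ± 0.068, SE; adjusted p = 0.190). Etv1 had 0.074 (adjusted p = 0.490).

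**Figure D4:**
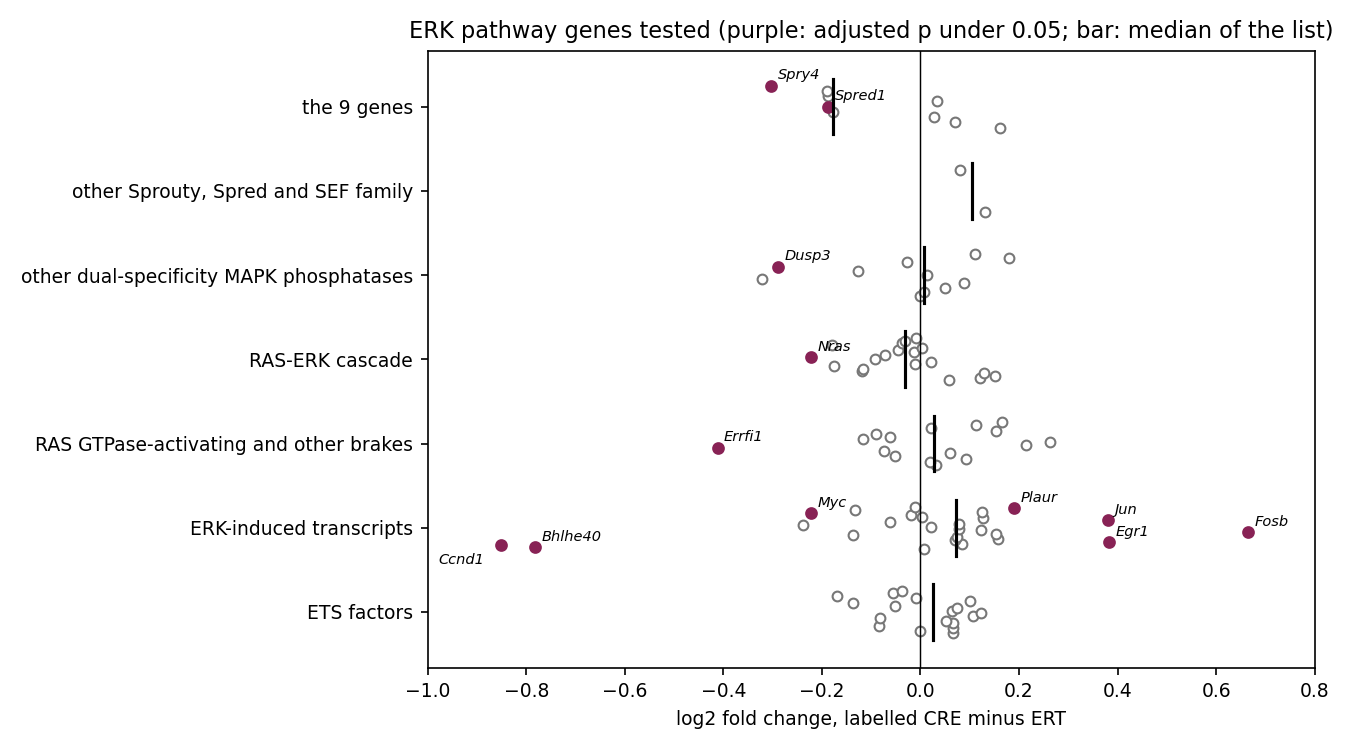
Log2 fold change, labelled CRE minus ERT, of each tested gene in the 9 feedback genes and in 6 lists of ERK pathway genes; filled purple points have an adjusted p under 0.05, and black bars are list medians. Calls among the feedback genes, the other phosphatases, the cascade and the brakes all lie below 0, and those among ERK-induced transcripts lie on both sides, from -0.85 (Ccnd1) to 0.66 (Fosb).

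The genes with the pattern most like that of Spry4 over the 6 arrays, among 14952 others tested, were Pdap1 and Tagap (Pearson's r = 0.997 and 0.995). Those most like Dusp4 were Naglu and Kcnh2 (r = 0.997 and 0.994). With 6 arrays and that many genes such values are a description only, and the arrays share their group and any array-wide shift.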

How the data were processed

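Gene expression in 6 samples was measured on Affymetrix arrays. The authors deposited log2 values, 1 an array for 35556 probe sets; per the submitters' processing notes RMA (background correction, normalization and summarization) and Partek 6.5 were used, with settings and genome build not given in the sources used here. Values were used as deposited; they carry no count depth, and 3 arrays a group limit the precision. GEO's platform table gave 1 symbol to 21789 probe sets, several to 1621 (not used) and none to 12146. Genes below the 25th percentile of mean log2 value (4985) were left out. limma 3.58.1 in R 4.3.3 (lmFit, eBayes, 4.31 prior degrees of freedom) compared CRE with ERT, two-sided, with Benjamini-Hochberg adjustment over 14953 genes and a threshold of 0.05. RMA values of dim probe sets lie near background, which can understate fold changes there. On simulated data for this comparison over 14953 genes, 87% of 100 genes changed by 0.5 and all of 100 changed by 1 (100%) were recovered, with 7 false calls; changes under 0.5 were not simulated.

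The genes and lists were chosen with earlier results of these data known. The text names the 9 genes, Inpp5d, the genes called in each pathway list (the 4 of smallest p where more were called), a few familiar members fixed by name and the brightest gene of a marker list; genes outside this rule, such as Jun, Plaur, Map2k1, Nf1, Gabpa, Etv4, Dntt, Rag2 and the myeloid markers, were chosen after their values were seen. Alternatives were no filter, a 50th percentile filter, the mean of probe sets, quantile, median and cyclic loess scaling, trend and robust eBayes, array weights, the replicate block, a threshold of 0.01, and each array left out. Promoters came from RefSeq (GRCm38.p6). Python 3.11.15, pandas 2.3.3 and matplotlib 3.10.9 were used for tables and figures.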

Additional observations from a re-analysis of the deposited data

How the results depend on the processing

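Calls among the feedback genes depended on the processing, and their number, 2 as reported, ran from 0 to 5. It was 0 without a filter on dim genes, with the replicate block and at a threshold of 0.01, 1 after quantile normalization and after cyclic loess, 4 with trend and robust estimation, and 5 after median centring and with array weights, and with 1 array left out in turn it ran from 0 to 5. Calls over all genes, 1140 as reported (7.62%), numbered 437 without the filter (2.19% of 19938), 147 with the block (0.983%) and 143 at 0.01. They numbered 994 after quantile normalization (6.65%), 1171 after loess (7.83%) and 1563 with the 50th percentile filter (15.7% of 9969). With trend and robust estimation they numbered 2147 (14.4%), after centring 3020 (20.2%) and with array weights 3993 (26.7%). With 1 array left out they ran from 116 (0.776%) to 3042 (20.3%). Spry4 (-0.30) lost its call without the filter (adjusted p = 0.0781) and with the block (0.120). Spred1 (-0.19) lost its call without the filter (0.0741), with the block (0.124), after quantile normalization (-0.17) and after cyclic loess (-0.15). Spry1 gained a call with the 50th percentile filter and with trend and robust estimation (both -0.19), after centring (-0.29) and with array weights (-0.22). Spry2 gained one after centring (-0.29). Etv5 gained one after centring (-0.28), with trend and robust estimation (-0.18) and with array weights (-0.21), and Dusp4 with array weights (0.18), while Dusp4 fell to 0.077, 0.060 and 0.098, without a call, after quantile normalization, centring and loess. The sign turned for Spred2 with the mean of probe sets (-0.083) and after centring (-0.068), and for Dusp5 (-0.033) and Dusp6 (-0.076) after centring. With arrays left out, differences ran from -0.36 to -0.24 for Spry4, -0.21 to -0.17 for Spred1, -0.21 to -0.16 for Spry1, -0.30 to -0.12 for Spry2 and -0.23 to -0.14 for Etv5; such fits hold fewer samples. Centring moved the median of all genes from 0.026 to -0.077, and its calls were 223 higher and 2797 lower in place of 523 and 617; the cause of the other changes was not tested. Of the pathway lists, ERK-induced transcripts had 5 to 10 genes called over all settings (7 as reported) and the ETS factors 2, 3 and 1 after centring, with trend and robust estimation and with array weights (0 in every other setting). The RAS-ERK cascade (1 as reported) had 0 without the filter, with the block and at 0.01, 2 with the 50th percentile filter and with trend and robust estimation, 5 after centring, 6 with array weights and 0 to 3 with an array left out. The brakes (1) had 2 after centring, 3 with the 50th percentile filter, quantile normalization and loess, 4 with trend and robust estimation, 5 with array weights and 1 to 4 with an array left out; 1 of these was lower in each and the rest were higher, except that after centring both were lower. The other phosphatases (1) had 0 with the block and at 0.01, 2 or 3 in 4 settings and 0 to 2 with an array left out, and the other Sprouty, Spred and SEF genes (0) had 1 without the array labelled CRE 3.

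Replicate numbers did not pair the arrays: deviations from group means correlated at 0.069, -0.17 and -0.40 for arrays 1, 2 and 3 (across genes, which are not independent). The replicate block also leaves fewer degrees of freedom.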
